A study of Sus scrofa with 6 samples.

Results

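Blood and endothelial marker microRNAs (miRNAs) were examined in cultured immature Sertoli cells of the pig. Sertoli cells support and feed the developing germ cells of the testis. The set was every entry of the deposited table named for the hairpins miR-126, miR-142, miR-150, miR-223, miR-144, miR-451 or miR-486, chosen by name and not by level. It held 9 of the 1645 entries in all, each among the 358 known pig miRNAs. By the cells they are best known from, 2 were endothelial (both arms of miR-126), 4 were of white blood cells (both arms of miR-142, miR-223 and miR-150) and 3 of red blood cells (miR-486, miR-451 and miR-144). The donors were fetuses at day 80 to 90 of gestation, and the testis cells were grown in medium with 10% fetal bovine serum. After 6 h in culture, 3 samples received AA2P (L-ascorbic acid 2-phosphate, a vitamin C derivative that keeps in culture medium) at 250 µM, and 3 were left untreated as controls. The length of the treatment is not given, nor whether the libraries of a group came from separate animals or cultures, so the p-values reflect variation among these libraries alone, which may be technical. No sorting step is named in the labels, and no defining messenger RNA of Sertoli cells is measured in a miRNA table, so the cell type label could not be checked that way.

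A miRNA is cut from a hairpin precursor, whose 5p or 3p arm is loaded onto an Argonaute protein and pairs with target messenger RNAs through its seed. Some hairpins are transcribed almost only in one lineage, which is why they serve as signs of that lineage in a tissue or a culture. miR-126 lies in an intron of the endothelial gene EGFL7 in human and mouse and represses SPRED1 and PIK3R2, inhibitors of signalling by vascular growth factor. miR-142 is made throughout the white blood cell lineages, miR-223 mainly in neutrophils and monocytes, and miR-150 in mature lymphocytes, where in mouse it represses Myb. miR-144 and miR-451 are transcribed together in red cell precursors under GATA1, and the miR-451 hairpin is cut by AGO2 instead of Dicer. miR-486 comes from the ANK1 locus, is abundant in red cells and is also made in muscle.

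Of the 7 hairpins, 6 were matched to RefSeq genes of the pig assembly Sscrofa11.1, used here for names and neighbours only because the build behind the deposited table is not given in the sources used here. There MIR144 and MIR451 are next to each other within the span of ERAL1, MIR486-1 lies within the span of ANK1, and MIR142 lies between TSPOAP1 and SUPT4H1. miR-223 had no match.

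The values are TPM: each library's reads were scaled by the authors to the same total, so a value is a share of that library's miRNA reads. The amount that 1 read adds to a low value gave a depth of 26.9 to 36.0 Mreads (megareads) for AA2P and 25.8 to 32.2 Mreads for the controls. A count of 0 allows up to 3 reads, which correspond to 0.0834 to 0.116 TPM. Intervals in TPM given below are exact Poisson 95% intervals on the implied reads and cover counting error only. The most abundant entry, miR-21-5p, took 41.1% ± 3.70 of the TPM in AA2P libraries and 52.1% ± 0.876 in controls (SD, n = 3 each). Together the 9 markers took 0.00925 to 0.0126% of the TPM in AA2P libraries and 0.0103 to 0.0117% in controls.

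miR-126-3p stood far above the other markers, and the blood cell markers were at most 5.40 TPM in any library. By mean level over the 6 libraries miR-126-3p ranked 136 among the known miRNAs, miR-126-5p 234, miR-486 237, miR-142-3p 260, miR-223 265, miR-142-5p 268, miR-451 273, miR-150 315 and miR-144 342. The place of miR-223 rests on 1 library. In the AA2P libraries the ranges of miR-126-5p (2.92 to 3.39 TPM) and miR-486 (1.92 to 3.16 TPM) overlapped, as did those of miR-486 and miR-142-3p (1.47 to 2.68 TPM). In the controls miR-126-5p (2.48 to 3.76 TPM) overlapped miR-486 (3.13 to 4.09 TPM), whereas miR-142-3p (0.43 to 0.59 TPM) lay below both and overlapped miR-142-5p and miR-451. miR-150 and miR-144 stood at or below 3 reads in each of the 6 libraries.

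**Figure D1:**
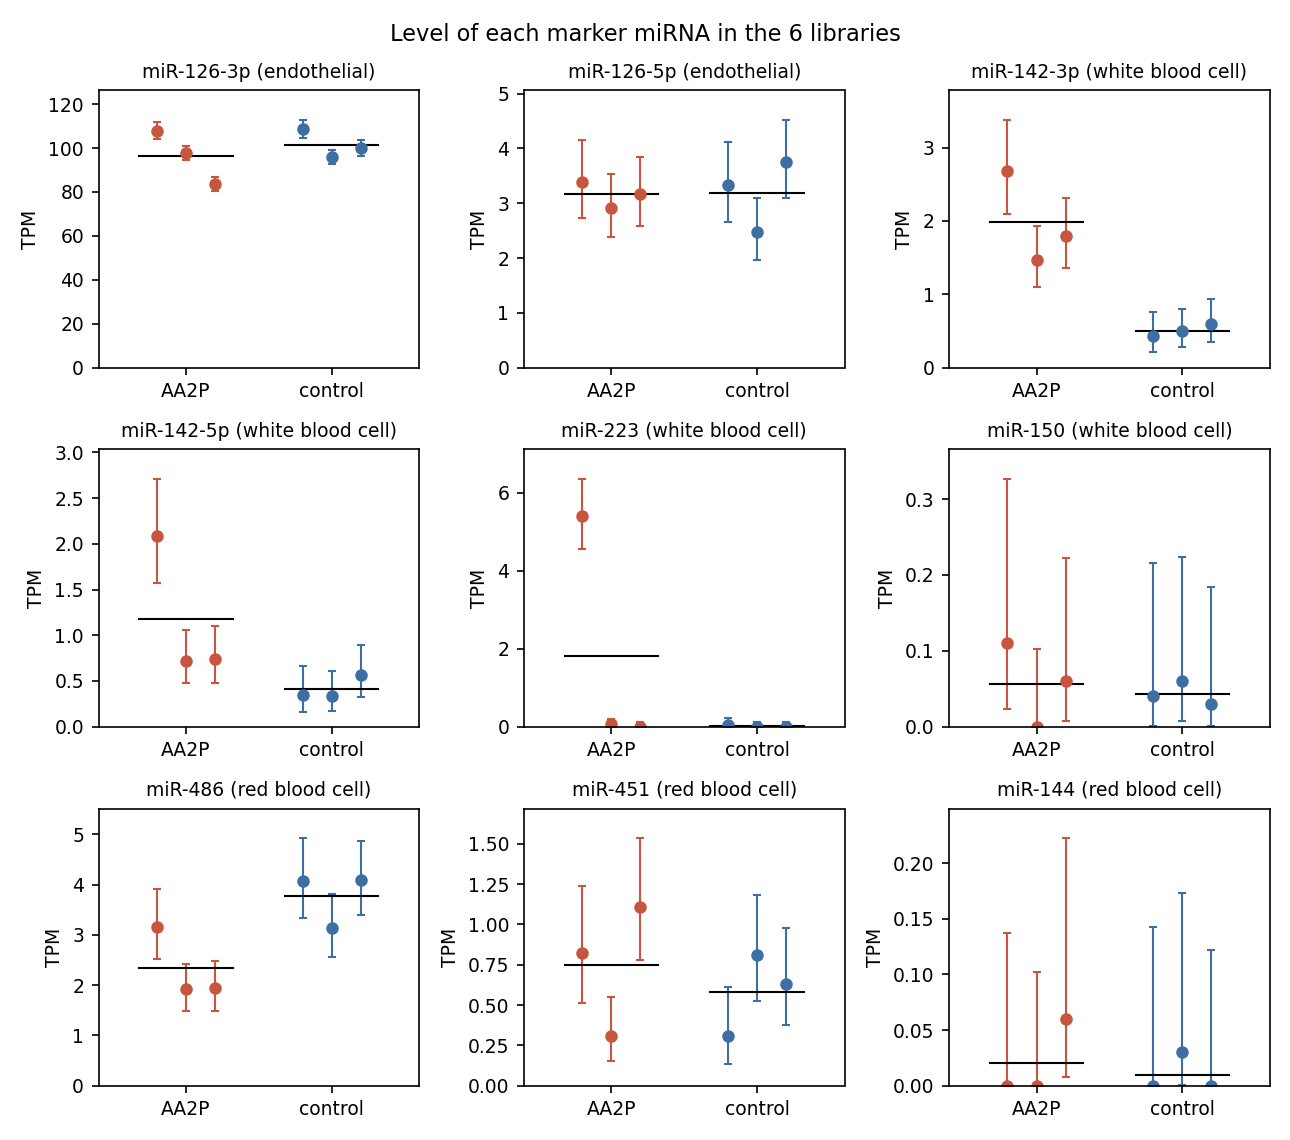
Level in TPM (vertical axis, from 0, a separate scale per panel) of each of the 9 marker miRNAs in 3 AA2P and 3 control libraries, in order of replicate; bars are exact Poisson 95% intervals on the implied reads and black lines are group means. The miR-142 arms are higher in the AA2P libraries without overlap, and miR-223 stands at 5.40 TPM in AA2P replicate 1 alone.

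Both arms of the endothelial hairpin were present at similar levels in the AA2P and the control libraries. miR-126-3p, the arm that represses SPRED1, was at 107.89, 97.6 and 83.61 TPM with AA2P, against 108.6, 95.89 and 99.86 TPM in controls. The groups overlapped, and the lowest and the highest value were AA2P replicate 3 and control replicate 1. Its mean was 96.4 ± 12.2 TPM with AA2P and 101 ± 6.50 TPM in controls (SD, n = 3 each), a log2 fold change of -0.08 with a 95% interval of -0.36 to 0.20 (limma on log2(TPM + 1), adjusted p = 0.615). miR-126-5p was at 3.39, 2.92 and 3.17 TPM with AA2P, against 3.33, 2.48 and 3.76 TPM in controls. Here too the groups overlapped, with both extremes among the controls. Its interval ran from -0.43 to 0.43 on the log2 scale (limma, adjusted p = 0.999).

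The scaling decided how miR-126-3p read. As deposited, the 433 tested entries centred on a log2 fold change of 0.25 (the median), and relative to that median miR-126-3p was at -0.33. It passed as lower with AA2P with trimmed means (-0.36), the median of ratios (-0.35) and quantile normalization (-0.35), with limma adjusted p = 0.0260, 0.0266 and 0.0399. With miR-21-5p or the 10 most abundant entries left out of the totals it was at -0.37 and -0.28 and did not pass (limma, adjusted p = 0.0631 and 0.0817). miR-126-5p was not called under any scaling.

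miR-142-3p, which is restricted to blood lineages, was low in all libraries and higher in each AA2P library than in each control. It was at 2.68, 1.47 and 1.79 TPM in AA2P libraries, against 0.43, 0.5 and 0.59 TPM in controls. Each AA2P library lay above each control, as in 40.4% of the tested entries, and the Poisson intervals of the AA2P libraries (lowest bound 1.10 TPM) did not reach those of the controls (highest bound 0.938 TPM). The mean was 1.98 ± 0.627 TPM with AA2P and 0.507 ± 0.0802 TPM in controls (SD, n = 3 each), 3.91-fold higher, from 183 reads in the AA2P libraries and 45 in the controls. The log2 fold change on log2(TPM + 1) was 0.96 with SE 0.234 (limma, adjusted p = 0.0293). The entry was at least 1 TPM only in the AA2P libraries, so it entered the test through the group in which it is high, and the call is no independent support for a rise. Of 6 tested entries that reached 1 TPM in no control library, 3 were called higher. Of the 4 members tested, 1 was called higher and 0 lower (1, miR-486, by limma at an unadjusted p under 0.05), where 19.9% of the tested entries were called higher and 4.85% lower.

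The call of miR-142-3p was a narrow one. With no filter on low values it was lost (limma, adjusted p = 0.142), and so it was with the replicate number as a block (adjusted p = 0.0837). It held when AA2P replicate 2 was left out (limma, adjusted p = 0.0387), and it was lost when any other library was left out (adjusted p = 0.0718 to 0.0845). Without AA2P replicate 1 the log2 fold change was 0.80. Under the scalings the change was 0.82 to 1.41, with calls under trimmed-mean and median-of-ratios scaling (limma, adjusted p = 0.0430 and 0.0426) and none under the other 3 (adjusted p = 0.0579 to 0.0713).

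miR-142-5p, the other arm, was too low for the test, which required at least 1 TPM in at least 3 libraries. It was at 2.08, 0.72 and 0.74 TPM in AA2P libraries, against 0.35, 0.34 and 0.56 TPM in controls. The groups did not overlap, and AA2P replicate 1 stood highest. Of the 1212 entries too low to test, 3.14% were higher in each AA2P library than in each control, against 40.4% of the tested entries. Each library held only 731 to 900 of the 1645 entries above 0. miR-142-5p had reads in all 6 libraries, so the 3.14% is not a like baseline for it. The mean was 1.18 ± 0.779 TPM with AA2P and 0.417 ± 0.124 TPM in controls (SD, n = 3 each), and p was 0.1 by a two-sided exact permutation test, where 3 libraries a group cannot give less. The Poisson intervals of AA2P replicates 2 and 3 overlapped those of the controls. With no filter on low values limma gave it an adjusted p of 0.507.

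miR-223, a miRNA of neutrophils and monocytes, appeared in a single library. It was at 5.40 TPM, or 145 reads, in AA2P replicate 1, against 0.06 TPM (2 reads) and 0 TPM in AA2P replicates 2 and 3. In the controls it was at 0.04 TPM (1 read), 0 and 0 TPM. The interval in AA2P replicate 1 ran from 4.55 to 6.35 TPM, and the upper bounds in the other 5 libraries were 0.114 to 0.216 TPM. It was the 1 known miRNA in the whole table that reached 1 TPM in 1 library while the other 5 held at most 3 reads, whereas 129 predicted entries did so, 15 to 28 in each library. The groups overlapped, no fold change is given, and p was 0.4 by a two-sided exact permutation test.

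miR-150, the lymphocyte miRNA, was at 0.11, 0 and 0.06 TPM with AA2P, against 0.04, 0.06 and 0.03 TPM in controls. These are 5 reads in the AA2P libraries and 4 in the controls. A difference was not detectable at this depth.

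The white blood cell markers summed to 10.27, 2.25 and 2.59 TPM in the AA2P libraries, against 0.86, 0.9 and 1.18 TPM in the controls. Each AA2P library was above each control, as in 40.4% of the single tested entries, and AA2P replicate 1 stood apart from AA2P replicates 2 and 3. In AA2P replicate 2 the miR-142 arms were at 1.47 and 0.72 TPM, and in AA2P replicate 3 at 1.79 and 0.74 TPM. There the sum is nearly all miR-142, so it repeats the result of that hairpin. The ratio of the means was 5.14 with AA2P replicate 1 and 2.47 without it, and without miR-223 it was 3.33. AA2P replicate 1 was the highest library for 4 of the 9 markers, namely the 4 of white blood cells. Among these, miR-150 rests on 3 reads there, and the miR-142 arms come from 1 hairpin. That library was also the highest for 35.6% of the tested entries. Of the white blood cell markers only miR-142-3p was tested, so that share is not a like baseline for the others. Fewer cells of a type and less RNA per cell cannot be told apart in such bulk libraries.

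**Figure D2:**
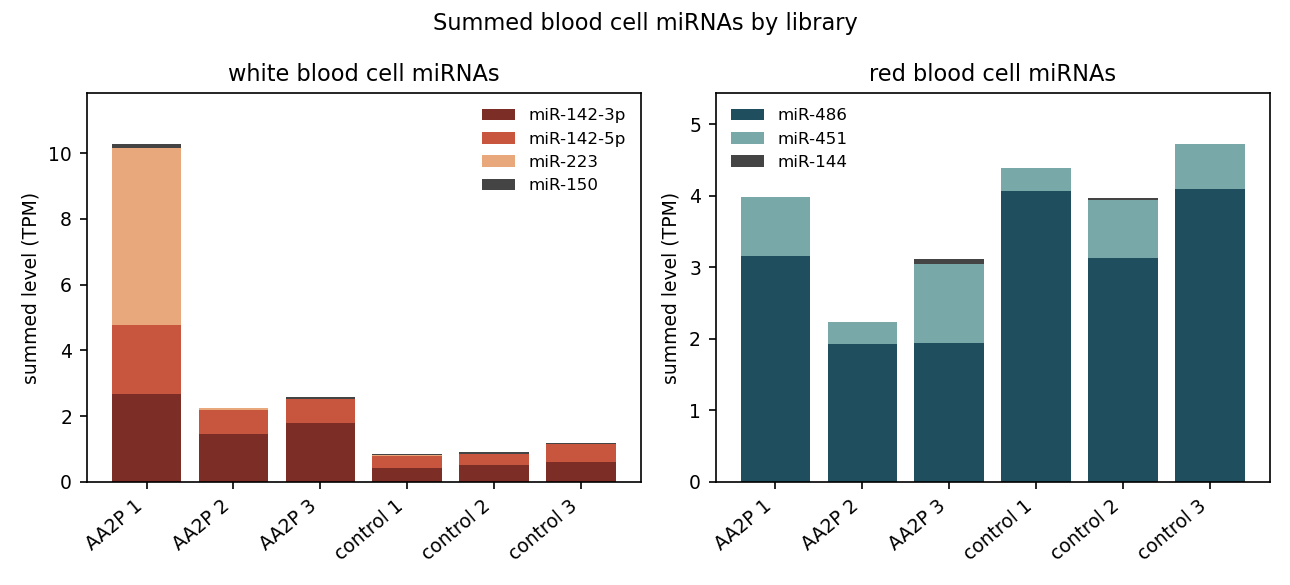
Summed level in TPM (vertical axes, from 0) of the white blood cell miRNAs (left) and the red blood cell miRNAs (right) in each AA2P and control library, stacked by miRNA. The white blood cell sum reaches 10.27 TPM in AA2P replicate 1, with 5.40 TPM of it from miR-223, and the red blood cell sum is mostly miR-486.

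The white blood cell markers did not keep one ratio across libraries. In AA2P replicate 1 miR-223 made up 66.8% of the reads of miR-223 and miR-142-3p together (exact binomial 95% interval 60.1 to 73.0%). In AA2P replicate 2 that share was 3.64% (0.443 to 12.5%), and in AA2P replicate 3 it was 0 of 58 reads, with an upper bound of 6.16%. Both intervals lie below that of AA2P replicate 1. In the controls it was 8.33%, 0 and 0%, with upper bounds of 18.5 to 38.5% on 12 to 18 reads.

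The markers of red blood cells were low in both groups. miR-486 was at 3.16, 1.92 and 1.94 TPM in AA2P libraries, against 4.07, 3.13 and 4.09 TPM in controls. AA2P replicates 2 and 3 lay below the controls, while AA2P replicate 1 was just above control replicate 2, so the groups overlapped. The mean was 2.34 ± 0.710 TPM with AA2P and 3.76 ± 0.549 TPM in controls (SD, n = 3 each). Its log2 fold change was -0.53 with a 95% interval of -1.04 to -0.01. It did not pass (limma, adjusted p = 0.118), with an unadjusted value of 0.0456. Scaling by trimmed means, by the median of ratios or by quantiles made it pass as lower (-0.73 for each, limma adjusted p = 0.0385, 0.0393 and 0.0323). With miR-21-5p or the 10 most abundant entries left out of the totals it was at -0.85 and -0.84 and did not pass (limma, adjusted p = 0.0631 and 0.0650). With those totals the added 1 TPM also shrinks the change less. With predicted entries left out of the fit miR-486 passed as well (limma, adjusted p = 0.0217).

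miR-451, which is processed by AGO2, was at 0.82, 0.31 and 1.11 TPM with AA2P, against 0.31, 0.81 and 0.63 TPM in controls. It had its lowest value, 0.31 TPM, in both groups, and p was 0.6 by a two-sided exact permutation test. Its cluster partner miR-144 was listed at 0, 0 and 0.06 TPM with AA2P, against 0, 0.03 and 0 TPM in controls. That is 2 reads beside 69 of miR-451 in the AA2P libraries and 1 read beside 53 in the controls. Red blood cell markers summed to 2.23 to 3.98 TPM in the AA2P libraries and 3.97 to 4.72 TPM in the controls. miR-451 and miR-486 did not move together between libraries: the reads of miR-451 were 20.6, 13.8 and 36.4% of both in AA2P replicates 1 to 3, and 7.08, 20.5 and 13.3% in control replicates 1 to 3.

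**Figure D3:**
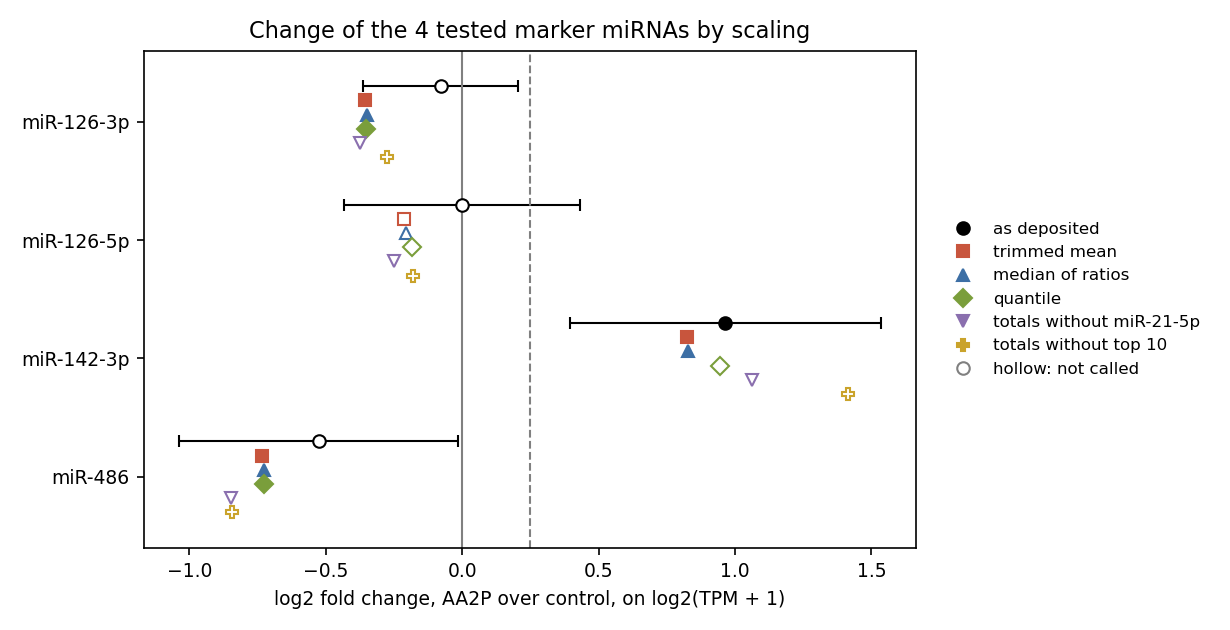
Log2 fold change of AA2P over control on log2(TPM + 1) (horizontal axis) for the 4 tested markers as deposited, with its 95% interval, and under 5 other scalings; filled symbols have a limma adjusted p under 0.05, and the dashed line marks the median of all tested entries as deposited, 0.25. miR-142-3p is above 0 and miR-486 below 0 under each scaling, and miR-126-3p moves from -0.08 to between -0.37 and -0.28.

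Where both arms of a hairpin are listed, as for miR-126 and miR-142, their shares can be compared inside 1 library free of its scaling. For miR-126 the 5p arm held 3.04, 2.90 and 3.65% of the reads of both arms in AA2P libraries, against 2.97, 2.52 and 3.63% in controls. The groups overlapped. For miR-142 the 5p arm held 43.8, 32.9 and 29.3% in AA2P libraries, against 45.0, 40.7 and 48.6% in controls. AA2P replicates 2 and 3 were below the controls and AA2P replicate 1 was within their range, and the intervals of the controls, which rest on 20 to 35 reads, covered 22.4 to 68.5%. The main test of arm use took hairpins with a mean of at least 10 TPM in both arms. None of its 39 hairpins was a marker, and by limma 0 were called, with 4 at an unadjusted p under 0.05. Without that filter the change of log2((5p TPM + 1)/(3p TPM + 1)) was 0.08 for miR-126 and -0.40 for miR-142 among 87 hairpins, and neither passed (limma, adjusted p = 0.783 and 0.128). The added 1 TPM shrinks the ratio of arms as low as those of miR-142. With no pseudocount its log2 ratio of 5p to 3p was -0.89 ± 0.470 with AA2P and -0.31 ± 0.241 in controls (SD, n = 3 each), a difference of -0.58 with p = 0.2 by a two-sided exact permutation test.

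**Figure D4:**
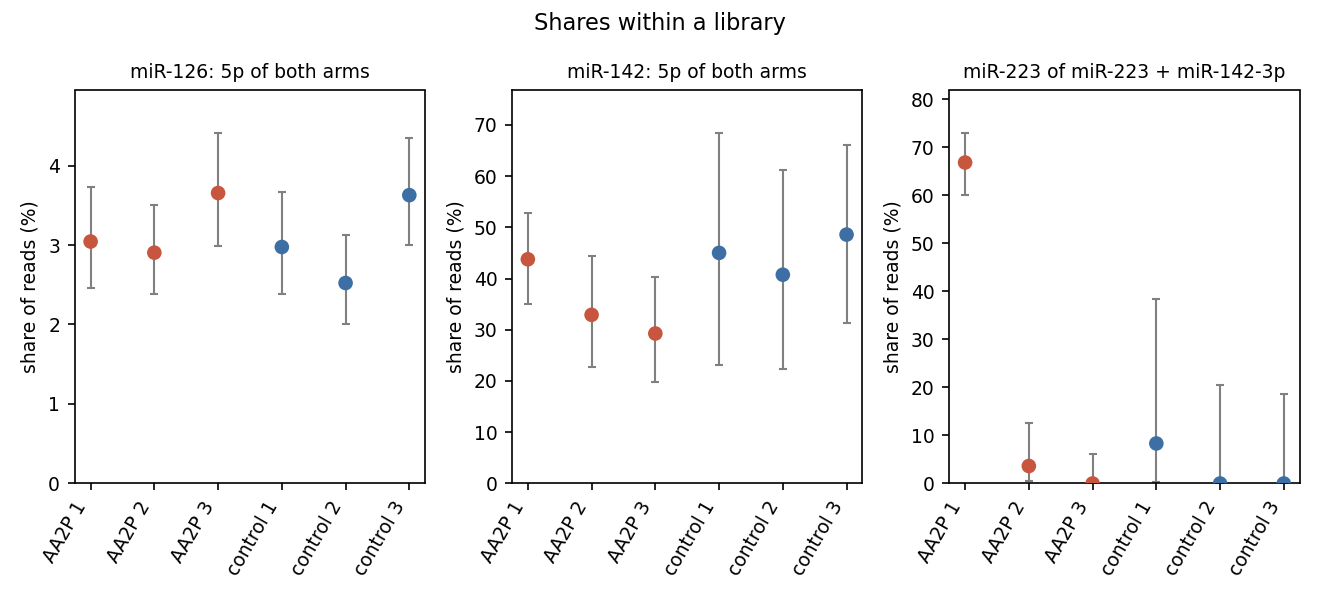
Share of reads in percent (vertical axes, from 0) in each AA2P (red) and control (blue) library, for the 5p arm of miR-126, the 5p arm of miR-142, and miR-223 relative to miR-142-3p; bars are exact binomial 95% intervals. The arms of miR-126 stay at 2.52 to 3.65%, and miR-223 reaches 66.8% in AA2P replicate 1, where the other libraries have at most 8.33%.

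For scale, miRNAs known from gonadal somatic cells and markers of other tissues were read from the same libraries. Of 5 miRNAs known from gonadal somatic cells, miR-140-3p was at 1178 ± 69.9 TPM with AA2P and 1106 ± 61.5 TPM in controls (SD, n = 3 each), and the other 4 reached at most 5.4 TPM. miR-202, known from the supporting cells of the mouse gonad, was at 0.42 to 0.68 TPM with AA2P and 0.4 to 1.01 TPM in controls for its 5p arm, while its 3p arm was listed at 0 in 5 libraries. The 5 muscle and myoid miRNAs summed to 219 to 306 TPM with AA2P and 167 to 227 TPM in controls, mostly miR-1. The liver miRNA miR-122-5p was at 9.9, 9.62 and 6.37 TPM with AA2P, against 3.52, 4 and 6.43 TPM in controls, and did not pass (limma, adjusted p = 0.0746). The white blood cell sum lay below this liver miRNA in each library but AA2P replicate 1 (10.27 beside 9.9 TPM), and the red blood cell sum in each but control replicate 1 (4.38 beside 3.52 TPM).

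Other miRNAs known from blood and vessel cells, but made by many cells, moved in both directions. Of 16 such miRNAs 14 were matched by name and 13 tested, and miR-363 was too low, at 0.06 to 0.37 TPM. With AA2P 4 of the 13 rose and 4 fell, where 19.9% of all tested entries were called higher and 4.85% lower, with a median log2 fold change of 0.02 beside 0.25 for all tested entries. The falls were those of miR-222, miR-146a-5p, miR-221-3p and miR-155-5p (log2 fold change -1.43, -1.24, -1.10 and -0.61). These miRNAs repress the cell cycle inhibitor CDKN1B (miR-221 and miR-222), Toll-like receptor signalling (miR-146a) and, for miR-155, inhibitors of immune signalling, and all 4 falls passed under the 5 other scalings. The rises were those of miR-181b, miR-181a, miR-424-5p and miR-503 (1.09, 0.73, 0.62 and 0.52). The rises of miR-181a and miR-181b passed under all 5 other scalings, while miR-503 passed under 1 of them and miR-424-5p under 0. miR-92a, abundant in red cells, was at 11717 ± 497.5 TPM with AA2P and 13956 ± 1138 TPM in controls (SD, n = 3 each), did not pass as deposited (limma, adjusted p = 0.0739) and passed as lower under the 5 other scalings. miR-139-5p, at 1667 ± 84.8 TPM with AA2P and 1787 ± 82.8 TPM in controls, did likewise. miR-191 was at 5763 ± 947 TPM with AA2P and 4638 ± 437 TPM in controls, did not pass as deposited and passed as higher under 1 of the 5, quantile normalization (limma, adjusted p = 0.0125).

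The known miRNAs with the profile closest to each tested marker were found by the root-mean-square difference of log2(TPM + 1) over the 6 libraries, each profile centred on its own mean, among 256 miRNAs. For miR-126-3p they were miR-125b, miR-24-3p and miR-7134-3p, at 0.061, 0.073 and 0.074. For miR-126-5p they were miR-106a, miR-199b-3p and miR-20a-5p, at 0.044, 0.064 and 0.070. For miR-142-3p they were miR-542-3p, miR-542-5p and miR-429, at 0.12, 0.14 and 0.16, and for miR-486 they were miR-339-5p, miR-4334-3p and miR-29c, at 0.15, 0.16 and 0.16. The neighbours of miR-142-3p included miR-542-3p, at 1174 TPM with AA2P and 622 TPM in controls on average, and miR-429, at 207 and 98.8 TPM, both called higher (limma, adjusted p = 0.0100 and 0.00222). The remaining neighbour, miR-542-5p, was at 2.85 TPM with AA2P and 1.23 TPM in controls and was not called (limma, adjusted p = 0.0756). These likenesses are descriptions over 6 libraries that share the treatment. They were taken with 1 TPM added, which shrinks changes at the level of miR-142-3p. Its log2 fold change was 0.96 with 1 TPM added and 1.74 with 0.1 TPM added. Likeness with another added value was not computed.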

How the data were processed

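The authors deposited 1 table of TPM for 6 small RNA libraries, rounded to 2 decimals. Per the submitters' processing notes Bowtie was used, with no version given. How reads shared by several entries were handled is not given in the sources used here, nor is the miRBase release. The deposited TPM step by 1 amount per library, which gave depths and implied reads. All low values lay within 0.0051 TPM of whole reads, about the rounding itself. The implied reads served for the intervals, while TPM were tested on a log scale and not as counts. limma 3.58.1 in R 4.3.3, with a mean-variance trend, compared 3 AA2P with 3 control libraries on log2(TPM + 1). It took the 433 entries that reached 1 TPM in 3 or more libraries, 4 of the 9 markers among them, two-sided, with Benjamini-Hochberg adjustment and calls under 0.05. It was tested on simulated data. Single markers too low for this had an exact permutation test (scipy 1.17.1). The markers and lists were chosen with earlier results of these data known, so sums over them carry no p. Names follow this rule: all markers, their 3 nearest profiles, called or abundant list members, and the most abundant entry. Alternatives were other pseudocounts, filters and scalings, known miRNAs only, no trend, a replicate block and leaving out each library. Sums and ratios without miR-223 or AA2P replicate 1, and the arms of miR-126 and miR-142 without a filter, were added after seeing the data.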

Additional observations from a re-analysis of the deposited data

Results flagged for a closer look

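A signal appeared in 2 of the 5 markers that were too low to be tested. There the counting interval of an AA2P library lay above the intervals of all 3 controls. The rule was applied to markers only, and only for AA2P above control, so no share over all entries is available. High values in a single library were common among predicted entries: 129 reached 1 TPM in 1 library alone, 26 of them in AA2P replicate 1. miR-223 was at 5.40 TPM in AA2P replicate 1, against at most 0.04 TPM in controls. miR-142-5p was at 2.08 TPM in AA2P replicate 1, against at most 0.56 TPM in controls. Both signals are in the same library, which also had the highest miR-142-3p, at 2.68 TPM. That library had the second lowest depth of the 6, at 26.9 Mreads, and the share of TPM in predicted entries, 0.501%, was the lowest of the AA2P libraries. Their part in these signals was not tested.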

How the results depend on the processing

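The count of 107 calls over all entries became 57 with no filter and 63 with the replicate block, and ranged from 62 (without control replicate 3) to 98 when a library was left out. The block ended the call of miR-142-3p (limma, adjusted p = 0.0837) and changed no other call of a marker. The labels state no pairing, and the replicate number was not taken to pair libraries. Same-numbered libraries deviated together with correlations of 0.29, 0.06 and 0.18. Those of different numbers were not computed, so these values cannot decide whether the number pairs them. The call of miR-142-3p ended in 10 of 17 alternatives, none of which turned its direction, with adjusted p from 2.30e-04 with known miRNAs only to 0.142 with no filter. miR-126-5p, close to 0 as deposited, turned to -0.0026 with a pseudocount of 5, to -0.21 with trimmed means, -0.20 with the median of ratios, -0.19 with quantiles, -0.25 with totals lacking miR-21-5p and -0.18 with totals lacking the 10 most abundant entries, and ranged from -0.13 to 0.10 when a library was left out. miR-126-3p turned to 0.018 without AA2P replicate 3, and its range there was -0.16 to 0.018. The cause was not tested, but the scalings also lower the median of all entries.

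The log2 difference of the summed endothelial markers was -0.08 as deposited and -0.36 with trimmed means, -0.35 with the median of ratios, -0.37 with totals lacking miR-21-5p and -0.27 with totals lacking the 10 most abundant entries. That of the red blood cell markers was -0.40 as deposited. It was -0.62 with trimmed means, -0.61 with the median of ratios, and -0.71 and -0.68 with those 2 totals. That of the white blood cell markers was 1.36 and ranged from 0.79 (without AA2P replicate 1) to 1.69 when a library was left out. Arm use gave 0 calls, 9 with no filter, and 0 to 3 when a library was left out. Calls among the other blood and vessel miRNAs ranged from 2 to 6 higher and from 3 to 6 lower. Depth limits miR-150, miR-144 and, but for 1 library, miR-223, which rest on at most 3 reads in a library.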
